A study of Mus musculus with 2 samples.

Results

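The genes described here are 10 genes of cellular lipid handling, which take up, bind, store, release or export cholesterol and fatty acids: Abca1, Abcg1, Apoe, Fabp4, Cd36, Lpl, Plin2, Pparg, Msr1 and Scarb1. They were chosen by name, with earlier results of these data known. All 10 were among the 17128 genes of the deposited expression table. RNA-seq was done on primary mouse hepatic stellate cells, the fat-storing pericytes of the liver, which turn into matrix-producing myofibroblasts when they are cultured. The 4-OHT group was 1 library of Adar1f/f/Cre-ER cells given 100 nM 4-hydroxytamoxifen (4-OHT), which activates Cre-ER so that it deletes the floxed Adar1 alleles. The vehicle group was 1 library of Adar1f/f/Cre-ER cells given vehicle. Cells of both groups were culture-activated for 4 days in DMEM with 10% serum. Adar1 encodes ADAR1, an RNA-editing enzyme that turns adenosines of double-stranded RNA into inosines. Both groups carried the floxed alleles and Cre-ER, while 4-OHT was given to 1 group only. Loss of ADAR1 therefore cannot be told apart from direct effects of 4-OHT or of active Cre. No source used here gave the promoter of Cre-ER, the animals' age or any pooling.

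Cells take up oxidised lipoproteins and fatty acids through scavenger receptors, and lipoprotein lipase frees fatty acids from triglyceride-rich particles at the cell surface. Surplus fatty acids and cholesterol are esterified and kept in droplets coated by perilipins, and surplus cholesterol leaves through ABC transporters onto apolipoproteins. The nuclear receptor LXR, which senses oxysterols, switches on the export genes, and PPAR receptors, which sense fatty acids, switch on binding, droplet and oxidation genes. In liver, stellate cells store retinyl esters in droplets and lose them on activation, and macrophages and endothelium use many of these same genes.

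Promoter sequence is given for Abca1, because a nuclear receptor motif lies in it, and for Apoe and Plin2, the members with the largest decrease and increase among the 5 with a RefSeq promoter. These 5 were Abca1, Plin2, Cd36, Pparg and Apoe. Each line holds the 250 bases before the annotated start, from RefSeq on GRCm38.p6, read 5′ to 3′ on the minus strand. The coordinates are chr4:53159896-53160145 for Abca1, chr7:19699189-19699438 for Apoe and chr4:86670060-86670309 for Plin2.
Abca1: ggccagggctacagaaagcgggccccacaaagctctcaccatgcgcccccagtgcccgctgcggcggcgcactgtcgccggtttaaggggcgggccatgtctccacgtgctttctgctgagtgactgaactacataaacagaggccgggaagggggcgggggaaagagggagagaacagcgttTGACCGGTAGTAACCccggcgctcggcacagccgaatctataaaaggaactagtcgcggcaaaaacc
Apoe: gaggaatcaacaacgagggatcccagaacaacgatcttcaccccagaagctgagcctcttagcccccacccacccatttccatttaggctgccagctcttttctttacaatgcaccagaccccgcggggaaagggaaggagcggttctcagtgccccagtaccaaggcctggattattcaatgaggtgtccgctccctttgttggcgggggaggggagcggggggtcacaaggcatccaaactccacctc
Plin2: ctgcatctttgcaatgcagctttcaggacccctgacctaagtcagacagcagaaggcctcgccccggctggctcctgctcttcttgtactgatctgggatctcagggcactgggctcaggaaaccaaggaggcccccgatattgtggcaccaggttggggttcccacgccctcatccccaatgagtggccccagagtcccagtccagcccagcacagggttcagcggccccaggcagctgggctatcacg
Capitals mark a match to a direct repeat with a 4-base spacer, the arrangement that LXR binds with its partner RXR. It was searched as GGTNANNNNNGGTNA on both strands, with letters set after the Abca1 sequence had been seen. The match in Abca1 lay on the opposite strand, 67 to 53 bases before the start. Of 32851 promoter windows of 250 bases, 0.621% held this motif. Also searched on both strands were a repeat with a 1-base spacer that PPAR binds (GGTNANNGGTNA, in 0.938% of windows), the interferon-stimulated response element core (GAAANNGAAA, in 2.98%) and a sterol regulatory element (ATCACNCCAC, in 0.192%). None of these letters occurred in any window of the 5 genes, which says only that they are not in these windows.

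FPKM, fragments per kilobase of transcript scaled to library size, summed to 553155 in the 4-OHT library and 492899 in the vehicle library, with medians of 6.09 and 6.10. From the steps between low values, 1 FPKM over 1 kilobase stood for 30.5 fragments with 4-OHT and 38.6 with vehicle. With 1 library per group there is no replicate check, no test was possible, and every difference is between these libraries. The Adar1 transcript was not analysed here, so the deletion could not be checked. Markers of stellate cells were present but far below those of macrophages and endothelium, so the libraries are named here by their label only. Of 16 stellate markers 13 were in the table, with summed FPKM of 136 with 4-OHT (0.209 to 65.6 per gene) and 219.6 with vehicle (0.536 to 121). Lrat, which makes retinyl esters, was at 0.209 FPKM with 4-OHT and 1.36 FPKM with vehicle. All 18 macrophage markers were measured, with sums of 4589 FPKM (4.14 to 1353) and 6579 FPKM (3.18 to 3050.5), as were all 14 endothelial markers, with sums of 1917 FPKM (4.97 to 675) and 2015 FPKM (4.79 to 421). The median change of the macrophage list was −0.21, that of the endothelial list −0.57 and that of the stellate list −0.74. All 9 listed markers of activated stellate cells or fibroblasts were measured, with sums of 93.6 FPKM with 4-OHT and 338 FPKM with vehicle. Of these 9, 7 were lower by 2-fold, beside 3.48% of all genes, and the median change was −1.3. No marker in these lists stood at 0 in both libraries, and the 8 adipocyte markers were not analysed here. Cd36 and Msr1 are also genes of macrophages, and Cd36 and Fabp4 of endothelium. In bulk RNA, fewer cells of a type and less RNA per cell cannot be told apart.

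**Figure D1:**
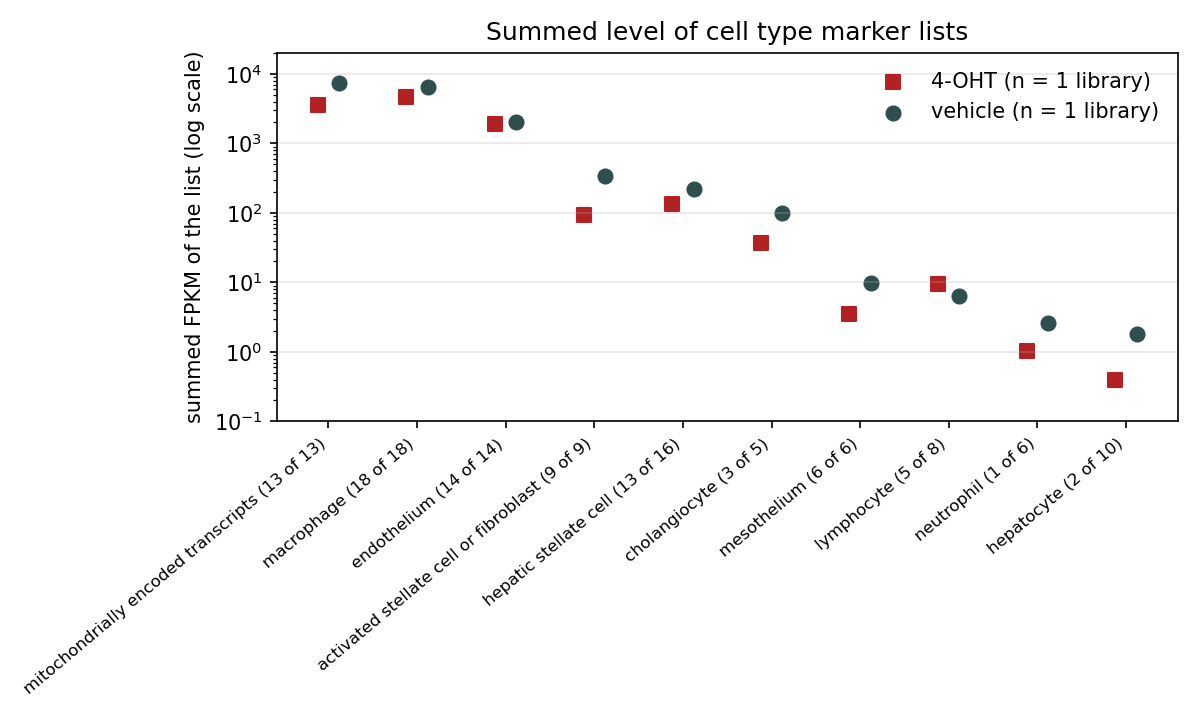
Summed FPKM (log axis) of each cell type marker list and of mitochondrially encoded transcripts, in the 4-OHT library (red squares) and the vehicle library (dark circles), with the number of listed genes in the table. Macrophage markers summed to 4589 FPKM with 4-OHT and 6579 FPKM with vehicle, above the 136 and 219.6 FPKM of stellate markers.

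All 10 lipid genes were well expressed, and they did not move as a block. Fabp4 and Apoe were at least 2-fold lower in the 4-OHT library, none was at least 2-fold higher, and 8 lay within 2-fold. Changes are log2 of 4-OHT FPKM plus 1 over vehicle FPKM plus 1, counted for genes that reached 1 FPKM in 1 library or both, a minimum that all 10 passed. Over all 13558 genes that passed, 9.26% were past 2-fold, 3.48% lower and 5.78% higher. With both libraries scaled to the same FPKM sum, the counts over all genes were 632 higher and 643 lower, in place of 783 and 472, and the median moved to −0.11 from 0.03. The same 2 lipid genes were the ones past 2-fold under that scaling. At 1.5-fold, 3 members were lower (Cd36 in addition) beside 10.2% of all genes, and 2 were higher (Abcg1 and Plin2) beside 11.7%. The members' median change was −0.25, with 7 below 0 and 3 above.

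**Figure D2:**
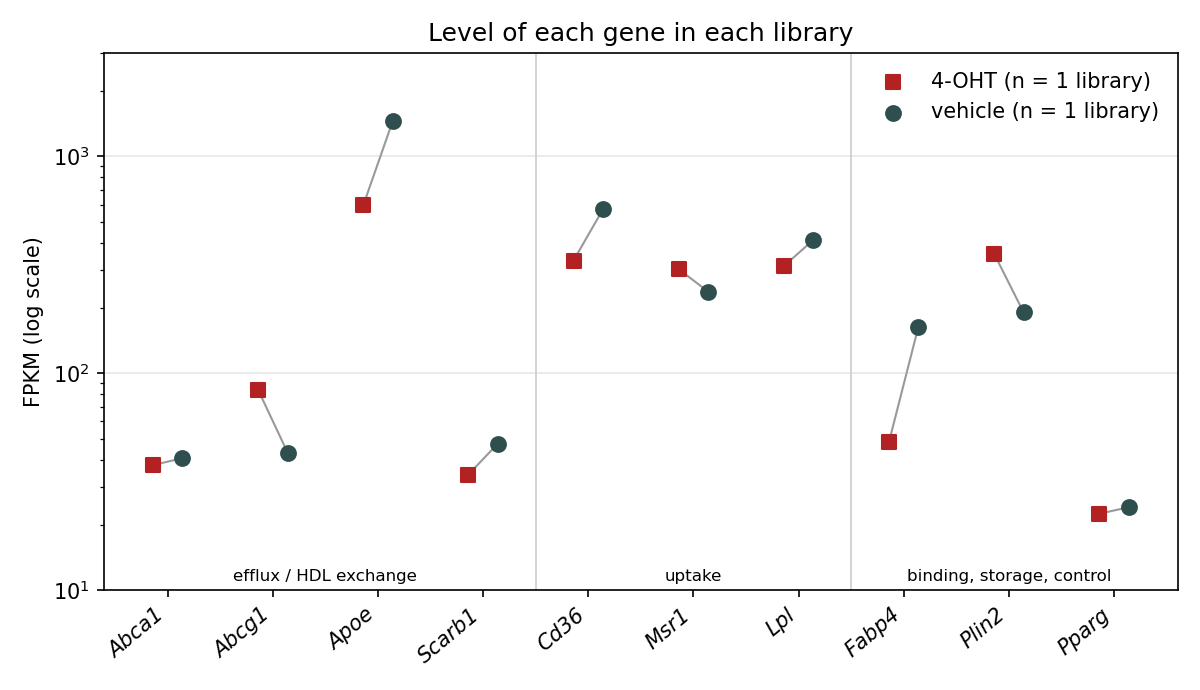
FPKM (log axis) of the 10 genes in the 4-OHT library (red squares) and the vehicle library (dark circles), 1 library each, joined by a line per gene and ordered by role. Apoe and Fabp4 are lower with 4-OHT, Abcg1 and Plin2 are higher, and Abca1 and Pparg are nearly level.

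The order of levels differed between the libraries. With 4-OHT it ran Apoe, Plin2, Cd36, Lpl, Msr1, Abcg1, Fabp4, Abca1, Scarb1 and Pparg, from 595 FPKM down to 22.5 FPKM. With vehicle it ran Apoe, Cd36, Lpl, Msr1, Plin2, Fabp4, Scarb1, Abcg1, Abca1 and Pparg, from 1455 FPKM down to 24.1 FPKM. Plin2 thus stood next after Apoe with 4-OHT and below Cd36, Lpl and Msr1 with vehicle. No spread over samples exists, so whether neighbours in either order differ was not testable. Pparg, the lowest, was still at percentile 70.0 of expressed genes with 4-OHT and 74.1 with vehicle, and Apoe was at percentiles 99.5 and 99.8. Together the 10 genes made up 0.384% of all FPKM with 4-OHT and 0.646% with vehicle.

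If all fragments of a gene came from its longest coding transcript, the members held from 1066 fragments (Fabp4 with 4-OHT) to 71013 (Cd36 with vehicle). Every member has more than 1 annotated transcript, so these fragment counts are approximate, and the exact 95% intervals of the ratio given below cover counting error only. Pparg overlaps an annotated antisense gene, Gm44079, and Abcg1 and Scarb1 each overlap a short gene on their own strand (Gm25447 and Gm42633), so shared reads in these 3 could be split. Gm42633 itself was at 0.329 FPKM with 4-OHT and 0.581 FPKM with vehicle. In the authors' deposited table, Fabp4 was the 1 member called at a q-value under 0.05, beside 2.48% of all genes (0.753% lower and 1.72% higher).

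**Figure D3:**
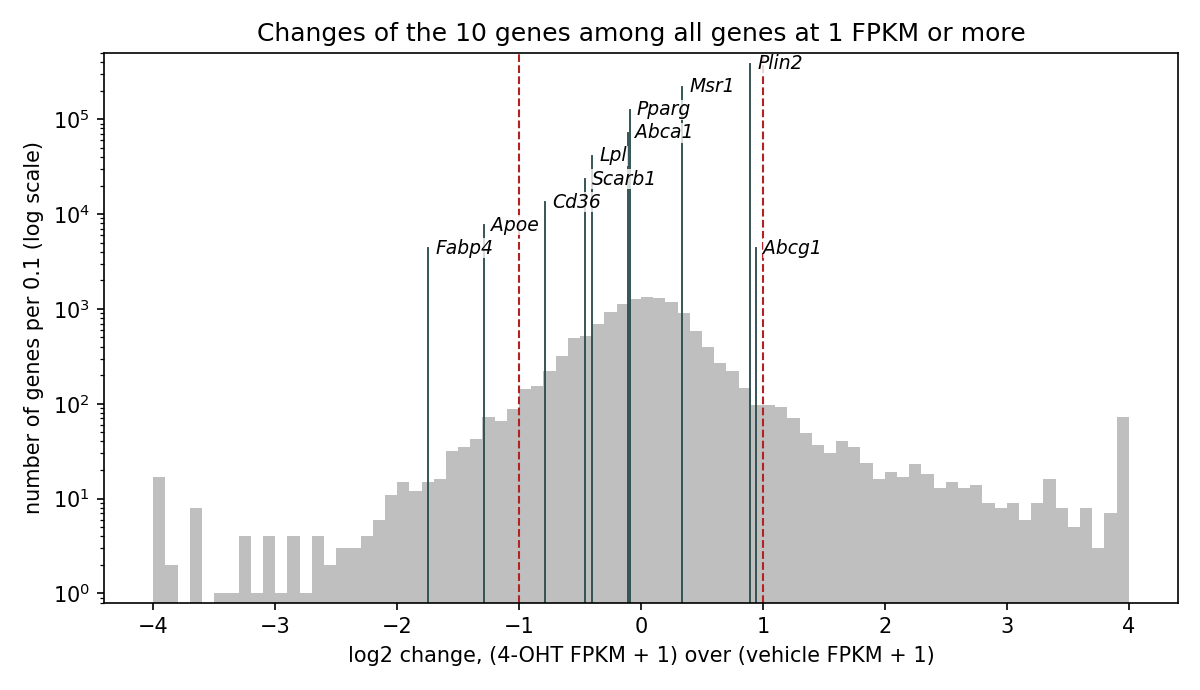
Number of genes (log axis) by log2 change in bins of 0.1, for the 13558 genes that reached 1 FPKM in 1 library or both, with changes beyond 4 placed in the end bins. Vertical lines mark the 10 lipid genes and dashed lines the 2-fold limits. Fabp4 (−1.75) and Apoe (−1.29) lie past the lower limit, and Abcg1 (0.94) and Plin2 (0.89) lie just inside the upper one.

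Among the export genes, Abca1 and Abcg1 parted and Apoe was lower. Abca1, which loads cholesterol and phospholipid onto lipid-poor apolipoprotein A-I (chromosome 4, 53030787 to 53159895, minus strand, GRCm38), had 37.7 FPKM with 4-OHT and 40.6 FPKM with vehicle. Its ratio was 0.927 (counting interval 0.905 to 0.95) and its log2 change −0.11. Abcg1, which passes cholesterol to mature HDL particles (chromosome 17, 31057675 to 31117988, plus strand), was at 83.8 FPKM with 4-OHT and 43.1 FPKM with vehicle. This was a ratio of 1.94 (1.89 to 1.99) and a log2 change of 0.94, short of 2-fold. These LXR targets were at about the same level as each other with vehicle, and with 4-OHT Abcg1 stood well above Abca1. The authors' deposited table gave p-values of 0.06095 for Abcg1 and 0.80645 for Abca1.

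Apoe, the apolipoprotein that macrophages and stellate cells secrete and that accepts exported cholesterol (minus strand of chromosome 7, 19696109 to 19699188), was the most abundant member in both libraries. It was at 595 FPKM with 4-OHT and 1455 FPKM with vehicle, a ratio of 0.409 (0.403 to 0.415) and a log2 change of −1.29. The authors' deposited table gave it a p-value of 0.0372 and a q-value of 0.615. The macrophage lysozyme gene Lyz2 was lower by a similar factor, at 1353 and 3050.5 FPKM, whereas C1qa was at 429.6 and 515 FPKM and Adgre1 at 196 and 172 FPKM. Of the 18 macrophage markers, 11 were below 0 and 7 above, with a median of −0.21. The part of the macrophage RNA share in the Apoe difference was not tested.

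The lower level extended to the apolipoprotein genes beside Apoe. Apoc1, which lies 3449 bases away and inhibits lipoprotein lipase and cholesteryl ester transfer, was at 12 FPKM with 4-OHT and 25.1 FPKM with vehicle (log2 change −1.0). Apoc2, the cofactor of lipoprotein lipase, 18168 bases away, was at 2.39 and 6.16 FPKM (−1.08). With a pseudocount of 5 both lay within 2-fold, at −0.82 and −0.59. The other genes measured within 100 kilobases of Apoe were not lower by 2-fold. Tomm40, a mitochondrial import pore, was at −0.17 and Nectin2, an adhesion molecule, at 0.16, while Relb, an NF-kB subunit, was higher at 27.9 and 12 FPKM (1.16). Of 14 other apolipoprotein genes listed, 4 reached 1 FPKM, and the remaining pair were Clu, a secreted chaperone (79.9 and 118 FPKM, −0.56), and Apoo (1.93 and 2.45 FPKM, −0.24). This neighbourhood was described after the values had been seen.

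The receptors that control these genes were near level. Nr1h3, the LXR of macrophages and liver, was at 109 FPKM with 4-OHT and 89.9 FPKM with vehicle (log2 change 0.27), and Nr1h2, the widely expressed LXR, at 29.7 and 24.6 FPKM (0.26). Rxra, their partner, was at 33.8 and 42.5 FPKM (−0.32), and the LXR targets Srebf1 and Mylip, a regulator of lipid synthesis and a ubiquitin ligase, were at −0.13 and −0.25. Of 17 measured genes of LXR and its targets, 4 were lower by 2-fold and none was higher, beside 3.48% and 5.78% of all genes. Their median was −0.13, beside 0.03 for all genes. The 4 were Apoc1, Apoc2 and the desaturases Scd1 (4.06 and 14.6 FPKM, −1.63) and Scd2 (3.55 and 43.3 FPKM, −3.28), which other regulators also control. Arl4c, a small GTPase and LXR target in cholesterol export, was at 58.0 and 30.1 FPKM (0.92), near the change of Abcg1.

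Other sterol transporters moved in both directions. Of 16 measured genes, 4 were lower by 2-fold and 3 were higher, beside 3.48% and 5.78% of all genes. Their median was −0.39, beside 0.03 for all genes. Abcb4, a phospholipid exporter, was at 0.885 FPKM with 4-OHT and 3.97 FPKM with vehicle (log2 change −1.40), Abcg3 at 4.19 and 12.7 FPKM (−1.40) and Abca9 at 0.955 and 3.84 FPKM (−1.31). Stard4, a soluble carrier of cholesterol, was at 2.89 and 8.16 FPKM (−1.24). With a pseudocount of 5 all 4 lay within 2-fold. The 3 higher genes were Npc2, Stard3 and Gramd1b. Npc2, which lifts cholesterol out of lysosomes, was at 337 and 158 FPKM (1.09), Stard3, a tether of late endosomes, at 52.5 and 22.2 FPKM (1.20), and Gramd1b, a carrier from the plasma membrane, at 34.3 and 15.3 FPKM (1.11). With both libraries scaled to the same FPKM sum, Npc2 (0.92) and Gramd1b (0.95) lay within 2-fold, and Gramd1b also did with a pseudocount of 5 (0.95). Npc1, the lysosomal partner of Npc2, was at 41.1 and 41.9 FPKM (−0.03).

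**Figure D4:**
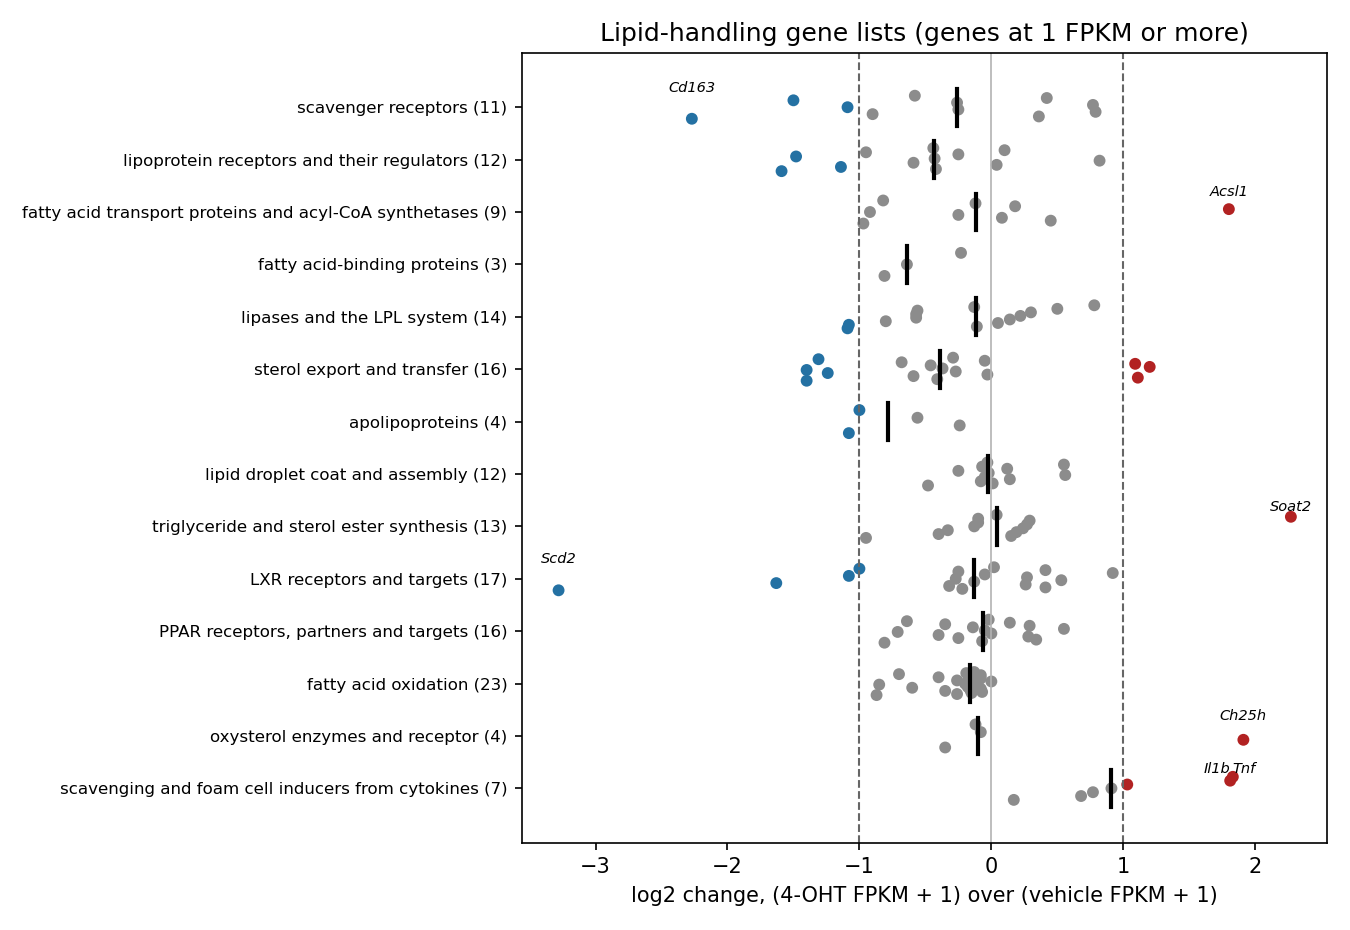
Log2 change of each gene that reached 1 FPKM in 1 library or both, by list, with the number of such genes in parentheses. Red points are at least 2-fold higher with 4-OHT, blue points at least 2-fold lower and grey points within 2-fold, dashed lines mark 2-fold, and black bars are medians. No gene of droplet coat, PPAR or fatty acid oxidation passed 2-fold, beside 9.26% of all genes. Soat2 (2.27), Ch25h (1.91) and Acsl1 (1.80) stand apart from their lists.

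The 3 scavenger receptors among the members stayed within 2-fold and had changes of both signs. Cd36, which takes up long-chain fatty acids and oxidised LDL (chromosome 5, 17781690 to 17888801, minus strand), had 331 FPKM with 4-OHT and 571 FPKM with vehicle. Its ratio was 0.579 (0.572 to 0.587) and its log2 change −0.79. Msr1, the class A scavenger receptor of macrophages (chromosome 8, 39581685 to 39642673, minus strand), had 302 FPKM with 4-OHT and 238 FPKM with vehicle, a ratio of 1.26 (1.24 to 1.28) and a log2 change of 0.34. Cd36 was thus lower and Msr1 higher, and the pair came to nearly the same level with 4-OHT. Scarb1, the HDL receptor that moves cholesteryl ester between HDL and cells (chromosome 5, 125277087 to 125341094, minus strand), had 34.1 FPKM with 4-OHT and 47.4 FPKM with vehicle (ratio 0.72, 0.684 to 0.756, log2 change −0.46). In the authors' deposited table the p-values were 0.2124 for Cd36, 0.54115 for Msr1 and 0.21105 for Scarb1.

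Of 11 other scavenger receptors at 1 FPKM or more, 3 were lower by 2-fold and none was higher, beside 3.48% and 5.78% of all genes. Their median was −0.26, beside 0.03 for all genes. Cd163, the haemoglobin receptor of macrophages, was at 0.0542 FPKM with 4-OHT and 4.09 FPKM with vehicle (log2 change −2.27). Colec12, a collectin receptor, was at 26.3 and 76.2 FPKM (−1.50), and Stab2, a hyaluronan receptor of liver endothelium, at 68.5 and 147 FPKM (−1.09). With a pseudocount of 5, Cd163 lay within 2-fold at −0.85. Macrophage genes differed among themselves, since Marco, a bacterial scavenger receptor, was at 278 and 415 FPKM (−0.58) and Cd68 at 504 and 392 FPKM (0.36). Stab2 is itself one of the 14 endothelial markers, of which 3 were lower by 2-fold and 11 lay within 2-fold, 5 of them above 0, with a median of −0.57. The part of endothelial RNA in the differences of Stab2 and Cd36 was not tested.

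Among lipoprotein receptors and their regulators, Sort1 and Lrp8 were lower by 2-fold, and the median of the 12 measured genes was −0.43. Sort1, a sorting receptor, was at 2.54 FPKM with 4-OHT and 9.62 FPKM with vehicle (log2 change −1.59), and Lrp8, a receptor for apolipoprotein E, at 0.836 and 3.03 FPKM (−1.14). With a pseudocount of 5, Sort1 (−0.96) and Lrp8 (−0.46) lay within 2-fold. Lrp1, a large receptor for apolipoprotein E remnants, was at 72.2 and 140.1 FPKM (−0.95), and Vldlr at 2.59 and 1.03 FPKM (0.82).

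Lpl was lower by less than 2-fold. Lpl encodes lipoprotein lipase (chromosome 8, 68880491 to 68907448, plus strand) and was at 312 FPKM with 4-OHT and 412 FPKM with vehicle. The ratio was 0.757 (0.747 to 0.767), and the log2 change −0.40, and the authors' deposited table gave a p-value of 0.52175. Of the genes that help the lipase, Gpihbp1, which anchors it on capillary endothelium, was at 18.3 and 40.1 FPKM (−1.09), beside the cofactor Apoc2 above. The factors needed for its maturation were level, with Lmf1 at 9.42 and 10.2 FPKM (−0.11) and Sel1l at 58.8 and 56.8 FPKM (0.05). With a pseudocount of 5, Gpihbp1 was at −0.95. Gpihbp1 is itself one of the endothelial markers, whose median was −0.57.

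The inhibitor Angptl4 and lipases inside the cell were within 2-fold, whereas Apoc1, which also inhibits the lipase, was lower as given above. Angptl4, which inactivates lipoprotein lipase, was at 40.7 FPKM with 4-OHT and 36.9 FPKM with vehicle (log2 change 0.14). Lipa, the lysosomal acid lipase, was at 295 and 437 FPKM (−0.57), and Pnpla2, the first lipase of droplet triglyceride, at 47.3 and 33.1 FPKM (0.50). Pcsk6, a protease that can cleave lipases, was at 0.386 and 1.41 FPKM (−0.80), and passed 2-fold with a pseudocount of 0.1 (−1.64). Of 14 measured genes of the list, 2 were lower by 2-fold and none was higher, beside 3.48% and 5.78% of all genes. Their median was −0.12, beside 0.03 for all genes.

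Fabp4 had the largest change of the 10 genes. It encodes the fatty acid-binding protein of adipocytes, macrophages and capillary endothelium (chromosome 3, 10204088 to 10208576, minus strand). It was at 48.2 FPKM with 4-OHT and 164 FPKM with vehicle, a ratio of 0.294 (0.275 to 0.314) and a log2 change of −1.75. The authors' deposited table gave it a p-value of 5e-05, the smallest in that table and shared by 273 genes, and a q-value of 0.00466. Its relatives were lower by less. Fabp5, the epidermal type also found in macrophages, was at 62.7 and 98.5 FPKM (−0.64), Fabp7, a brain type also known from mouse Kupffer cells, at 160 and 187 FPKM (−0.23), and Fabp3, the heart type, at 0.753 and 2.08 FPKM (−0.81). All 3 measured relatives were below 0 and within 2-fold, with a median of −0.64, although Fabp3 passed 2-fold with a pseudocount of 0.1 (−1.36). Of the 14 endothelial markers, 9 were below 0 and 5 above, with a median of −0.57. Among them Pecam1 (196 and 215 FPKM) and Cdh5 (319.7 and 300.2 FPKM) were near level, while Clec4g was at 18.9 and 45.4 FPKM. The part of endothelial RNA in the Fabp4 difference was not tested.

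Of 9 measured genes that bring fatty acids into metabolism, 1 was higher by 2-fold and none was lower. Over all genes, these shares were 5.78% and 3.48%. Acsl1, which activates fatty acids to acyl-CoA, was at 57.5 FPKM with 4-OHT and 15.8 FPKM with vehicle (log2 change 1.80), with a q-value of 0.00466 in the authors' deposited table. The other 8 measured transport proteins and synthetases lay within 2-fold, and the list median was −0.12. Cav1, the caveolar coat protein, was at 8.50 and 17.7 FPKM (−0.97) and Slc27a3, a fatty acid transporter relative, at 1.07 and 2.90 FPKM (−0.92). Cav1 passed 2-fold with a pseudocount of 0.1 (−1.05) and under each of the 3 other scalings (−1.12 to −1.0), and Slc27a3 did with a pseudocount of 0.1 (−1.36).

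Plin2, the perilipin that coats droplets in most cells outside fat tissue (chromosome 4, 86648386 to 86670060, minus strand), was higher, just short of 2-fold. It was at 356 FPKM with 4-OHT and 191 FPKM with vehicle, a ratio of 1.86 (1.82 to 1.91) and a log2 change of 0.89. The authors' deposited table gave a p-value of 0.0451 and a q-value of 0.688. None of the 12 other measured droplet coat and assembly genes passed 2-fold, beside 9.26% of all genes. Their median was −0.03, beside 0.03 for all genes. Plin3, the other perilipin in the table, was at 24.5 and 25.7 FPKM (−0.07). Hilpda, a droplet protein that inhibits lipolysis, was at 40.7 and 27.6 FPKM (0.55), Aup1, a droplet ubiquitin adaptor, at 123 and 82.9 FPKM (0.56) and Vps13c, a lipid carrier at contact sites, at 20 and 28.2 FPKM (−0.48).

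Among enzymes that make droplet lipids, Soat2 was the 1 gene past 2-fold. Soat2, one of the pair of enzymes that esterify cholesterol and best known from liver and gut, was at 10.4 FPKM with 4-OHT and 1.37 FPKM with vehicle (log2 change 2.27). The authors' deposited table gave it a q-value of 0.00466. Soat1, the esterifying enzyme of macrophages and most tissues, was at 181 and 158 FPKM (0.19), far above Soat2 in both libraries. Lpin1, a phosphatidate phosphatase, was at 5.08 and 10.8 FPKM (−0.95) and Agpat5, an acyltransferase, at 25.9 and 34.5 FPKM (−0.40). Of 13 measured genes 1 was higher and none was lower, beside 5.78% and 3.48% of all genes, and the median was 0.04. Lpin1 passed 2-fold with a pseudocount of 0.1 (−1.07) and with equal FPKM sums (−1.09).

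Ch25h was higher among enzymes of oxysterols, the ligands of LXR. Ch25h encodes cholesterol 25-hydroxylase, a known interferon-induced gene, and was at 89.5 FPKM with 4-OHT and 23.1 FPKM with vehicle (log2 change 1.91). It has a single annotated transcript, and 3320 and 1082 fragments put the ratio at 3.87 (3.61 to 4.15). A long non-coding gene on the other strand, Gm26902, overlaps it, and no source used here said whether strand was kept. The other oxysterol genes that reached 1 FPKM lay within 2-fold. They were Hsd3b7 (20.8 and 26.8 FPKM, −0.35), Cyp7b1 (0.903 and 1.07 FPKM, −0.12) and Cyp27a1 (9.01 and 9.56 FPKM, −0.08). Cyp46a1 did not reach 1 FPKM, at 0.0505 FPKM with 4-OHT and 0.319 FPKM with vehicle.

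Pparg was level between the libraries. Pparg encodes the nuclear receptor that drives fat cell and lipid-storing programs and is known for its loss in stellate cell activation (chromosome 6, 115360951 to 115490399, plus strand). It was at 22.5 FPKM with 4-OHT and 24.1 FPKM with vehicle, a ratio of 0.935 (0.871 to 1.0) and a log2 change of −0.09. The p-value in the authors' deposited table was 0.85385. Fabp4, Cd36, Lpl and Plin2 are known PPAR targets, and beside the level Pparg they had changes from −1.75 to 0.89.

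None of 16 other measured PPAR receptors, partners and targets passed 2-fold, beside 9.26% of all genes. Their median was −0.06. Ppard, the widely expressed PPAR, was at 7.49 and 7.81 FPKM (log2 change −0.05), and Ppara was not analysed here. Ucp2, a mitochondrial carrier, was at 62.1 and 109.9 FPKM (−0.81) and Cebpa, a partner of Pparg in fat cells, at 12.2 and 20.5 FPKM (−0.71). Fatty acid oxidation was similar, with none of 23 genes past 2-fold, beside 9.26% of all genes. Of these 23, 22 were below 0, and the median was −0.16. Hadh (8.43 and 16.3 FPKM, −0.87), Etfb (20.2 and 37.2 FPKM, −0.85) and Cpt1c (3.66 and 6.58 FPKM, −0.70) were the lowest, and Cpt1a, the entry enzyme of mitochondrial oxidation, was at 20.9 FPKM in both. Hadh (−1.02) and Etfb (−1.01) passed 2-fold when the FPKM sums were made equal. Mitochondrially encoded transcripts were lower beside them, with 10 of 13 past 2-fold, beside 3.48% of all genes, and a median of −1.24. Their part was not tested.

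Among cytokines and receptors that alter lipid uptake in macrophages, the inflammatory cytokines Tnf and Il1b stood highest. Of 7 measured, 3 were higher by 2-fold and none was lower, beside 5.78% and 3.48% of all genes. Their median was 0.91. Tnf was at 76.7 FPKM with 4-OHT and 20.8 FPKM with vehicle (log2 change 1.83), Il1b at 91.9 and 25.4 FPKM (1.81) and Tlr2, a receptor for bacterial lipoproteins, at 51.4 and 24.8 FPKM (1.03). Tlr2 lay within 2-fold under each of the 3 other scalings (0.86 to 0.99) and with a pseudocount of 5 (0.92). Over the 14 lists together, without the 10 members, 146 genes reached 1 FPKM. Of these 6.16% were higher by 2-fold and 10.3% lower, beside 5.78% and 3.48% of all genes, with a median of −0.13. With a pseudocount of 5, 7 listed genes were higher and 5 lower, and over all genes 456 and 163. The lists were chosen with earlier results of these data known, so these shares do not test them.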

How the data were processed

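RNA was profiled in 2 libraries, 1 per group, grouped by the treatment in their labels. The deposited table held an FPKM value for each gene in each library, as its header says. Per the submitters' processing notes STAR and Cufflinks were used, with the GRCm38 build and no version given, and no source used here says how the libraries were scaled to each other. The log2 fold change that the authors deposited equalled the log2 of FPKM plus 1, 4-OHT over vehicle, within 1e-09 for all 17128 genes. The p-value and q-value, the −log10 of the p-value and its signed score were deposited by the authors. No source used here says how their test set the spread without replicates, and these values compare 2 libraries, not conditions.

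All 17145 identifiers matched GENCODE M21 (GRCm38), the source of coordinates and transcript lengths. In 20 rows a symbol turned into a date was restored, and of repeated symbols the row with the larger sum was kept, dropping 17 rows. Changes used a pseudocount of 1, which understates the change of low genes, and calls needed 2-fold and 1 FPKM in the higher library. Fragments were recovered from low values of single-transcript genes longer than 600 bases. With effective lengths 171 (4-OHT) and 176 (vehicle) bases shorter than the transcript, 98.8% of 885 and 97.8% of 718 values lay within 0.1 of a whole fragment, against 20% by chance. Intervals are exact 95% binomial intervals of the fragment split and cover counting error only. For members the longest coding transcript was assumed.

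The members and lists were chosen with earlier results of these data known. Named genes were all members, the 3 genes per list whose change was greatest in size, a fixed set of receptors and enzymes, and genes that complete a count of 5 or fewer. Others were named after their values were seen, and some genes that the rule names are not reported here. Alternatives were pseudocounts of 0.1 and 5, no minimum, a minimum of 5 FPKM, 1.5-fold, equal FPKM sums, a median change of 0 and a trimmed mean of log ratios. Scripts were tested on simulated data (Python 3.11.15, pandas 2.3.3, SciPy 1.17.1).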

Additional observations from a re-analysis of the deposited data

How the results depend on the processing

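All 10 lipid genes kept the sign of their change and their side of 2-fold under the 5 alternatives of pseudocount and scaling, and Fabp4 (−1.91 to −1.67) and Apoe (−1.45 to −1.28) stayed past 2-fold. At 1.5-fold, 2 lipid genes were higher. Among all genes, lowering the limit to 1.5-fold counted 1581 as higher and 1386 as lower. A pseudocount of 5 left 456 and 163, and one of 0.1 put 859 on the lower side. Over the listed genes, 1.5-fold gave 17 higher and 33 lower, and a pseudocount of 5 gave 5 lower, against 9 and 15 as reported. These shifts follow from the construction of the settings, since a larger pseudocount shrinks the change of low genes and a smaller fold admits more. With equal FPKM sums the log2 changes dropped by about 0.17. Among 65 genes chosen by the naming rule 17 calls were lost and 11 gained over the 5 alternatives together. No called change reversed, which shifts of this size could not bring about. No paired analysis was possible because each group had 1 library. For the same reason no library could be left out. Approximate fragments on the shortest coding transcript, an alternative added after the data were seen, widened the counting interval of Scarb1 to 0.598 to 0.86.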

Other observations

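Genes next to the members were described by a rule of 100 kilobases. No measured neighbour of Abca1, Plin2, Pparg or Lpl passed 2-fold, beside 9.26% of all genes. Around Plin2, Haus6 was at 5.88 FPKM with 4-OHT and 5.69 FPKM with vehicle (log2 change 0.04) and Dennd4c at 15.7 and 14.8 FPKM (0.08), beside 0.89 for Plin2 itself. These values were looked at after the members' changes were known.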
